A study of Drosophila melanogaster with 6 samples.

Results

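The JNK pathway was followed through 10 genes taken by name from the count table: the ligand gene egr, the kinase genes msn, slpr, hep and bsk, the transcription factor genes Jra and kay, and puc, Ets21C and Gadd45. All 10 were found among the 15391 rows, and all 10 had enough counts to be tested, as had 8377 genes in all. Transcripts were counted by RNA sequencing of total RNA from dissected midguts of adult Drosophila melanogaster. The knockdown flies (Rab11 KD) carried an RNA interference construct against Rab11 under Myo1A-Gal4, and the controls were wild type (WT), with 3 libraries in each group. Rab11 encodes a small GTPase that acts at recycling endosomes, and Myo1A-Gal4 drives expression in enterocytes, the absorptive cells of the gut. At 5 days after eclosion the flies of both groups were moved to 29 °C, where they stayed 5 days. The labels give enterocyte as the cell type, but whole midguts were extracted, and these also hold stem cells, enteroendocrine cells and muscle. Neither the genotype of the controls beyond wild type nor the number of guts in a library is given in the labels.

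JNK signalling is a stress-activated kinase cascade. In flies the TNF ligand Eiger, the product of egr, binds receptors whose adaptors feed a chain of kinases: a MAP4K (Misshapen, msn), a MAP3K (Slipper, slpr, among others), a MAP2K (Hemipterous, hep) and the JNK itself (Basket, bsk). Basket phosphorylates Jun (Jra), which pairs with Fos (kay) as the AP-1 transcription factor. AP-1 drives puc, which encodes the phosphatase that turns Basket off and whose expression is widely read as a measure of JNK activity. In the fly midgut the pathway is known for its part in the response of enterocytes to damage and in the proliferation of stem cells. Kinases of the cascade are switched by phosphorylation, which transcript counts do not measure.

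Counted reads per library ran from 9818914 to 33082790, and replicate 3 was the deepest in both groups. Levels below are CPM, read counts brought to a common library size by TMM, with replicates 1, 2 and 3 in that order. Changes (knockdown over wild type) come from edgeR's quasi-likelihood test on the log2 scale with their standard errors (SE), and the adjusted p is that of Benjamini and Hochberg over all 8377 genes, with a threshold of 0.05. The labels do not say whether replicates were separate batches of flies, so a p-value measures only the spread between these libraries, which may be technical. Rab11 stood at 64.4, 78.2 and 78.7 CPM in knockdown guts, against 319, 270 and 219 CPM in wild-type guts. Its log2 fold change was -1.87 ± 0.23 (edgeR, adjusted p = 0.00342), so the targeted transcript was lower where the labels place the knockdown.

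Ets21C, puc, kay and Jra, which encode 3 transcription factors and the feedback phosphatase, rose in the knockdown. The ligand gene egr, the kinase genes msn, slpr, hep and bsk, and Gadd45 were not called by edgeR with TMM scaling and no replicate block. Of these, msn was called higher by DESeq2 (adjusted p = 0.0211), by edgeR with the replicate number as a block (0.0313) and with upper-quartile scaling (0.0474). Whether the transcription factor genes and the kinase genes differed in their change was not tested. Thus 4 of the 10 rose, against 9.05% of all genes tested, and 5 with the block, against 15.2%. By edgeR 0 of the 10 were called lower, against 7.63% of all genes tested, and 0 were lower at an unadjusted p under 0.05 or by DESeq2. The fitted change was above 0 for 9 of the 10, against 51.9% of all genes tested. Their median log2 fold change was 0.63, beside a median of 0.04 over all genes tested. The 10 genes and all lists below were chosen with earlier results of these data known. Setting their counts and medians beside those of all genes is therefore a description and not a test. Whole midguts were measured, so more of a transcript in each cell and more cells that hold it cannot be told apart.

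**Figure D1:**
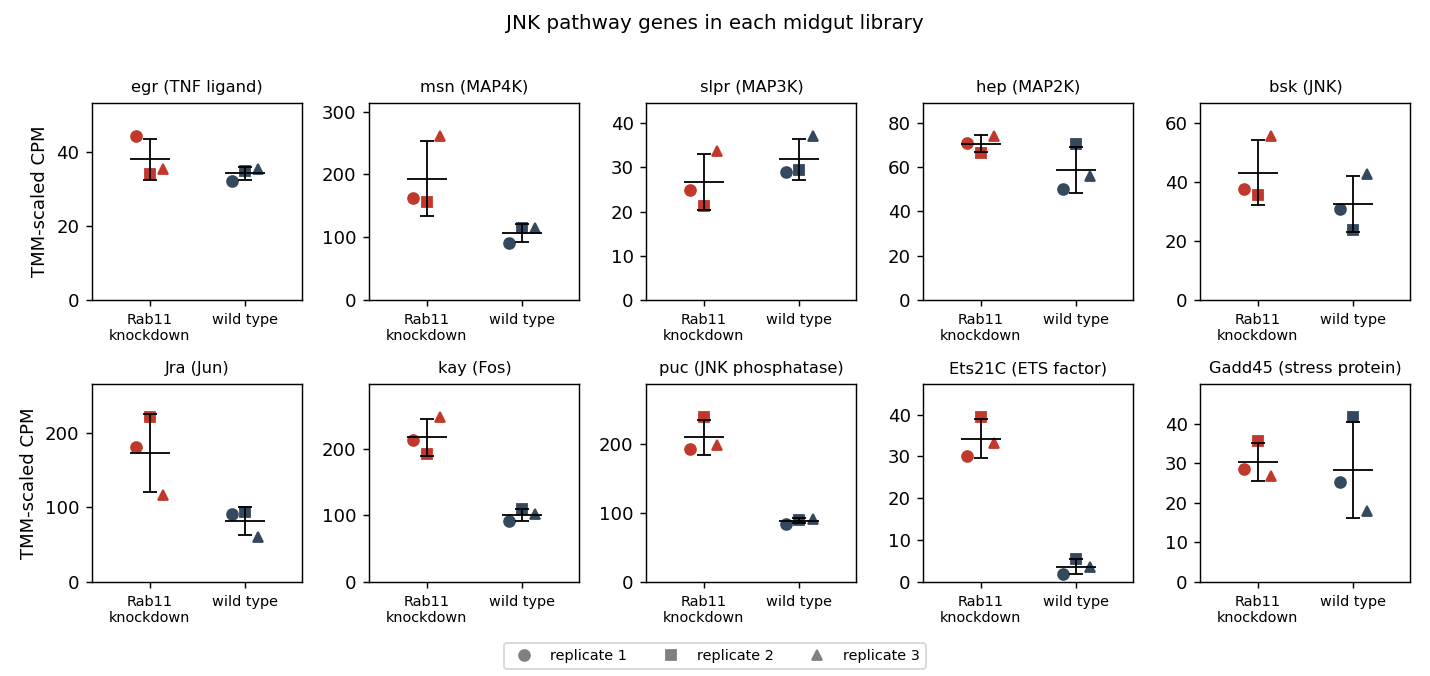
TMM-scaled CPM of each of the 10 genes in the 3 Rab11 knockdown and 3 wild-type libraries, with a point per library, marker shapes for the replicate number, and bars for the mean ± SD. For Ets21C, puc, kay, Jra and msn every knockdown point lies above every wild-type point, and for the other 5 genes the groups overlap.

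Ets21C, an ETS family transcription factor gene that is known to be induced by JNK signalling and stress, showed the greatest change of the 10. It stood at 30.1, 39.3 and 33.2 CPM in knockdown guts, against 1.91, 5.60 and 3.46 CPM in wild-type guts. Every knockdown library was far above the highest wild-type library. The means were 34.2 ± 4.70 CPM in knockdown guts, against 3.66 ± 1.86 CPM in wild-type guts (SD, n = 3 each). This is a log2 fold change of 3.23 ± 0.38 (edgeR, adjusted p = 0.00332), a fitted fold of 9.38. These wild-type levels rest on 15, 44 and 110 reads, the fewest of any of the 10 genes, against 426, 348 and 1584 reads in the knockdown. The wild-type libraries differed among themselves by more than the knockdown libraries did on the log2 scale, and replicate 2 was the highest in both groups. Exons of Ets21C overlap those of nAChRbeta3, a nicotinic acetylcholine receptor subunit gene on the opposite strand, in the BDGP6 annotation. The labels do not say whether strand was used in counting, and the overlap can affect the counts of both genes where it was not. nAChRbeta3 itself held 11, 7 and 279 reads in knockdown guts, against 9, 2 and 19 in wild-type guts, and did not pass the filter on low counts. Knockdown replicate 3 held nearly all of these reads. The effect of this overlap on the counts of Ets21C was not tested.

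puc, the gene of the JNK phosphatase Puckered, stood at 192, 238 and 198 CPM in knockdown guts, against 84.3, 89.4 and 91.2 CPM in wild-type guts. The groups lie far apart, and on the log2 scale the wild-type libraries were closer together for puc than for any other of the 10 genes. The means were 209 ± 25.1 CPM in knockdown guts, against 88.3 ± 3.55 CPM in wild-type guts (SD, n = 3 each). The log2 fold change was 1.25 ± 0.19 (edgeR, adjusted p = 0.00686), a fitted fold of 2.37. Comparing libraries of the same replicate number, the log2 ratios of knockdown to wild type were 1.19, 1.41 and 1.12. The calls of puc and Ets21C held in each of the 6 fits with a single library left out, with log2 fold changes of 1.15 to 1.31 for puc and 2.95 to 3.62 for Ets21C.

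kay, the Fos partner of AP-1, stood at 213, 192 and 247 CPM in knockdown guts, against 91.1, 109 and 103 CPM in wild-type guts. The lowest knockdown library was well above the highest wild-type library. The means were 217 ± 27.7 CPM in knockdown guts, against 101 ± 9.03 CPM in wild-type guts (SD, n = 3 each), with a log2 fold change of 1.11 ± 0.20 (edgeR, adjusted p = 0.0127). The call was lost without knockdown replicate 1 (adjusted p = 0.0576) or wild-type replicate 1 (0.0634), at nearly the same fold change of 1.13 and 1.04.

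Jra, the Jun partner, stood at 181, 221 and 117 CPM in knockdown guts, against 90.9, 93.8 and 60.7 CPM in wild-type guts. Replicate 3 was the lowest library in each group, and the groups do not overlap, with knockdown replicate 3 the closest to the wild type. The means were 173 ± 52.5 CPM in knockdown guts, against 81.8 ± 18.4 CPM in wild-type guts (SD, n = 3 each), with a log2 fold change of 1.08 ± 0.30 (edgeR, adjusted p = 0.0481). Between libraries of the same number the log2 ratio was 0.99, 1.24 and 0.95, a narrower range than that within either group. The call was the closest to the threshold of the 4, and of the fits with a single library left out it held only without knockdown replicate 3 (adjusted p = 0.0287). It was lost without knockdown replicates 1 and 2 (0.152 and 0.137) and without wild-type replicates 1, 2 and 3 (0.114, 0.101 and 0.127). Exons of Jra overlap those of RpLP0-like on the opposite strand in the BDGP6 annotation. RpLP0-like had 25.3, 25.2 and 31.6 CPM in knockdown guts, against 23.7, 28.0 and 46.3 CPM in wild-type guts, with overlapping groups and a log2 fold change of -0.26 ± 0.28 (edgeR, adjusted p = 0.583).

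The authors' deposited table of DESeq2 results, limited to adjusted p under 0.1, was used for 3 of the 10 genes. The log2 fold change in the authors' deposited table was 3.01 for Ets21C, 1.07 for kay and 1.01 for Jra, with adjusted p of 2.37e-14, 1.66e-06 and 0.0127. No value of puc or msn was taken from that table. In DESeq2 fitted here on all rows the adjusted p of puc was 1.92e-07 and that of msn 0.0239. Ets21C, kay and Jra are therefore not all of the 10 genes under 0.1 in this fit. In DESeq2 fitted here on the tested genes, puc had an adjusted p of 6.25e-08 and a log2 fold change of 1.22, kay 2.07e-06 and 1.08, and Jra 0.0128 and 1.06.

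**Figure D2:**
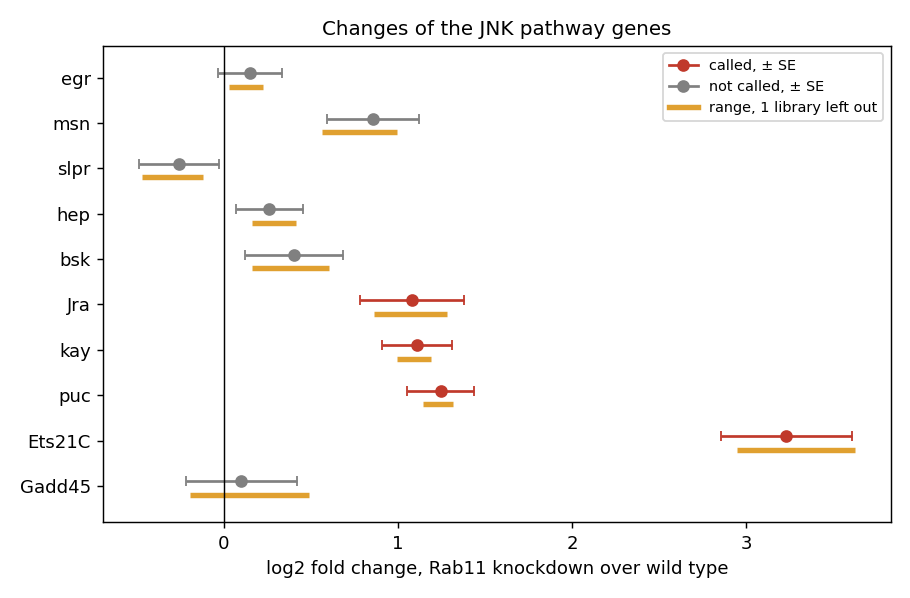
Log2 fold change of knockdown over wild type for each gene in pathway order, from the ligand egr at the top, as points with bars of ± SE, with the range over the 6 fits that leave out 1 library as a thick line. Ets21C lies at 3.23 and Jra, kay and puc between 1.08 and 1.25, while slpr is the only gene of the 10 below 0.

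Among the ligand and the kinases, no change reached the threshold in edgeR with TMM scaling and no replicate block. msn, the MAP4K gene, was the 1 of these 5 genes with an unadjusted p under 0.05 and the 1 called by DESeq2. It stood at 162, 155 and 262 CPM in knockdown guts, against 90.3, 115 and 115 CPM in wild-type guts. The groups do not overlap, and knockdown replicate 3 was far above the other 2 knockdown libraries. The log2 fold change was 0.86 ± 0.27 (edgeR, adjusted p = 0.0673). Without knockdown replicate 3 it was 0.56 (adjusted p = 0.117). With the replicate number as a block the adjusted p of msn was 0.0313 at a log2 fold change of 0.83, with DESeq2 it was 0.0211, and with upper-quartile scaling 0.0474. Including msn, 5 of the 10 genes had every knockdown library above every wild-type library, against 20.2% of all genes tested.

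bsk, the JNK gene itself, stood at 37.9, 35.8 and 55.9 CPM in knockdown guts, against 31.1, 23.9 and 42.8 CPM in wild-type guts. Replicate 3 was the highest library in both groups, and the groups overlap. bsk had a log2 fold change of 0.40 ± 0.28 (edgeR, adjusted p = 0.372). Each same-numbered pair had the higher value in the knockdown, at log2 ratios of 0.28, 0.58 and 0.39, and with the replicate number as a block the adjusted p was 0.0741.

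hep, the MAP2K gene, stood at 70.8, 66.4 and 74.1 CPM in knockdown guts, against 50.3, 70.3 and 55.8 CPM in wild-type guts, with wild-type replicate 2 inside the knockdown range. Its log2 fold change was 0.26 ± 0.19 (edgeR, adjusted p = 0.396). slpr, the MAP3K gene, stood at 25.0, 21.4 and 33.6 CPM in knockdown guts, against 29.0, 29.4 and 37.2 CPM in wild-type guts. It was lower in the knockdown library of each same-numbered pair, but the groups overlap and the log2 fold change was -0.26 ± 0.23 (edgeR, adjusted p = 0.499). This sign depends on the scaling, since with library sizes alone the change of slpr was 0.21. In the BDGP6 annotation slpr shares exon sequence on the same strand with CG2278, which had a log2 fold change of -0.70 ± 0.35 (edgeR, adjusted p = 0.21) on far fewer reads, 230 in knockdown guts, against 235 in wild-type guts.

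egr, the TNF ligand gene, stood at 44.5, 34.1 and 35.4 CPM in knockdown guts, against 32.3, 34.9 and 35.5 CPM in wild-type guts. Knockdown replicate 1 was the highest, and the other knockdown libraries lay within the wild-type range. The fitted log2 change was 0.15 ± 0.18 (edgeR, adjusted p = 0.626). The SE of egr was the smallest of the 10.

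Gadd45, a small stress-response protein whose mammalian relatives bind a MAP3K, stood at 28.5, 35.7 and 26.7 CPM in knockdown guts, against 25.3, 41.6 and 18.1 CPM in wild-type guts. The wild-type libraries spanned the whole knockdown range, and replicate 2 was the highest in both groups. The log2 fold change was 0.10 ± 0.32 (edgeR, adjusted p = 0.86), and its sign turned in some fits with fewer libraries, to -0.19 without wild-type replicate 3.

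Replicate 3 thus stood apart for several of these genes in the same way in both groups. On the log2 scale, bsk in replicate 3 was 0.40 above the mean of the knockdown libraries and 0.43 above that of the wild-type libraries, while slpr was 0.36 above it in the knockdown and 0.23 above it in the wild type. The deviation of Jra from its group mean was -0.52 in knockdown replicate 3 and -0.40 in wild-type replicate 3. puc differed from its group mean by at most 0.19 in any library. The replicate 3 libraries are also the deepest, and the labels name Ion Torrent and Illumina protocols without saying which was used for which library, so neither depth nor platform can be told apart from replicate number here.

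Levels between genes were compared per kilobase of annotated exon, which for the 10 genes ranges from 1495 bases (Gadd45) to 7789 bases (kay) in the BDGP6 annotation. Jra was the highest in both groups, at 105 ± 32.0 CPM per kb in knockdown guts, against 49.8 ± 11.2 CPM per kb in wild-type guts (SD, n = 3 each). puc followed at 66.0 ± 7.92 CPM per kb in knockdown guts, against 27.8 ± 1.12 CPM per kb in wild-type guts. In the knockdown the order then ran msn, kay, bsk, Gadd45, egr, hep, Ets21C and slpr. The libraries of puc lay apart from those of msn, those of egr from those of hep, and those of hep from those of Ets21C, while the other neighbours in this order overlapped, Jra and puc included. In the wild type the order was Jra, puc, Gadd45, bsk, egr, msn, kay, hep, slpr and Ets21C. There Jra lay apart from puc, kay from hep, hep from slpr and slpr from Ets21C, and puc to kay overlapped from neighbour to neighbour.

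Ets21C held the lowest level per length of the 10 genes in the wild type, at 0.676 ± 0.343 CPM per kb, and was near slpr in the knockdown, at 6.33 ± 0.870 CPM per kb (SD, n = 3 each). Among 8256 tested genes with a length, its mean level per kb was at percentile 39.1 in the knockdown and at percentile 7.33 in the wild type. For puc these percentiles were 87.2 in knockdown guts, against 75.4 in wild-type guts. kay was at percentile 74.9 in knockdown guts, against 58.4 in wild-type guts, and Jra at 91.2 in knockdown guts, against 84.4 in wild-type guts. Of the kinases, bsk was at percentile 69.9 in knockdown guts, against 63.6 in wild-type guts, and hep at 54.3 in knockdown guts, against 49.6 in wild-type guts. msn was at percentile 75.1 in knockdown guts, against 62.7 in wild-type guts, while slpr ran the other way, at 32.1 in knockdown guts, against 36.1 in wild-type guts.

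**Figure D3:**
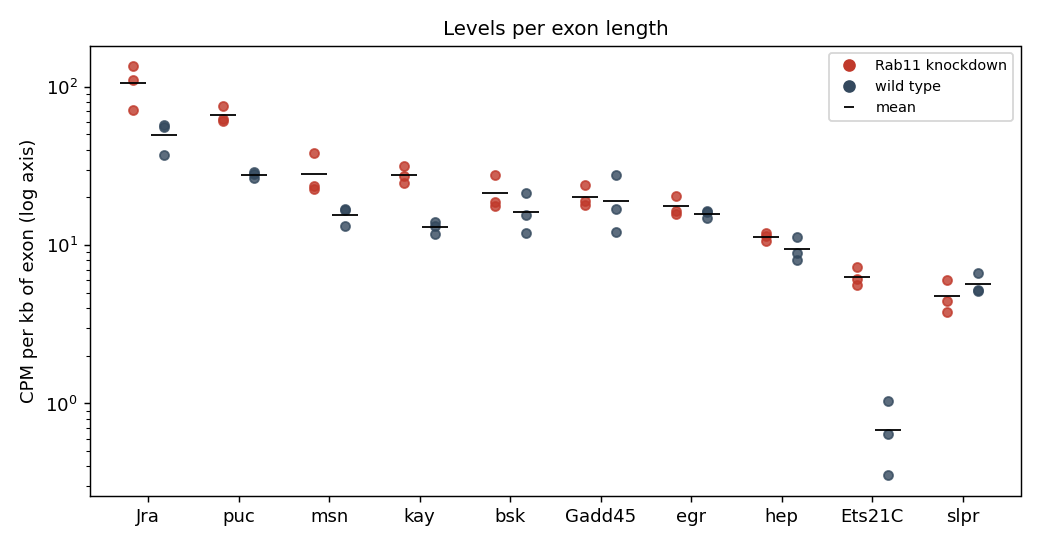
CPM per kb of exon on a log axis, with a point per library, a dash for the mean, and the genes in order of their knockdown mean. Jra and puc are the highest in both groups, and the wild-type points of Ets21C, between 0.352 and 1.04 CPM per kb, are the lowest on the plot.

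Ratios of counts between 2 of the genes within a library need no scaling between libraries. For each read of bsk there were 0.795, 1.10 and 0.593 reads of Ets21C in knockdown guts, against 0.0612, 0.234 and 0.0809 in wild-type guts, with every knockdown library above every wild-type library (exact two-sided permutation test, p = 0.1, the smallest that 3 libraries against 3 allow). puc had 5.06, 6.64 and 3.54 reads for each read of bsk in knockdown guts, against 2.71, 3.73 and 2.13 in wild-type guts. This ratio was higher in the knockdown in all 3 same-numbered pairs, but the groups overlap (exact permutation p = 0.2). kay and Jra, the partners in AP-1, had a ratio that overlapped between groups, with 1.18, 0.869 and 2.11 reads of kay for each read of Jra in knockdown guts, against 1.001, 1.16 and 1.69 in wild-type guts (exact permutation p = 0.9). In both groups replicate 3 had the highest ratio of kay to Jra and the lowest ratio of puc to bsk. These ratios are of reads and depend on the lengths of the genes.

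**Figure D4:**
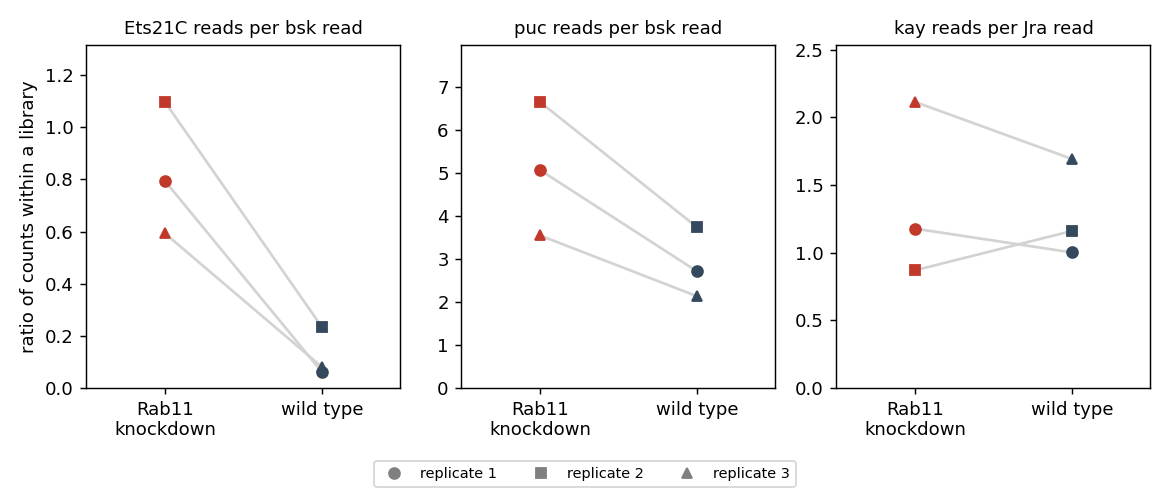
Ratio of the counts of 2 genes within each library, knockdown left and wild type right, with marker shapes for the replicate number and grey lines joining libraries of the same number. All 3 lines fall toward the wild type for Ets21C over bsk and for puc over bsk, and they cross for kay over Jra.

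The other upstream genes of the pathway were followed as a list of 17, of which 16 had enough counts to be tested. Of these, 4 rose and 1 fell by edgeR, against 9.05% higher and 7.63% lower of all genes tested, so that in this fit the share that fell was about that of all genes. By DESeq2 5 were higher and 3 lower, against 12.2% and 12.5% of all genes. At an unadjusted p under 0.05 in edgeR, 5 were higher and 4 lower. The share of all genes at that unadjusted p was not computed. Unadjusted counts, here and for the other lists, therefore cannot be set against the shares given. The median log2 fold change was 0.22, beside 0.04 over all genes. With the replicate block 5 were higher and 2 lower, with Rac2 added at 0.80 (edgeR, adjusted p = 0.0136) and wnd at -0.68 (adjusted p = 0.0308), against 15.2% higher and 14% lower of all genes. Rac2 and wnd were named after their values were seen. Grindelwald (grnd), a TNF receptor for Eiger, was higher in each knockdown library, at 13.2, 12.6 and 10.7 CPM in knockdown guts, against 3.05, 5.35 and 4.53 CPM in wild-type guts. Its log2 fold change was 1.49 ± 0.29 (edgeR, adjusted p = 0.0157). Wengen (wgn), the other TNF receptor, had 7.56, 7.24 and 6.74 CPM in knockdown guts, against 11.7, 9.93 and 17.3 CPM in wild-type guts. It lay lower in every knockdown library but was not called by edgeR, at a log2 fold change of -0.86 ± 0.28 (edgeR, adjusted p = 0.0742). DESeq2 did call wgn lower, at -0.90 (adjusted p = 0.0275), while edgeR's blocked fit left it just above the threshold (0.0503). wgn was named after its values were seen, as was Ask1 below.

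The adaptor gene Traf4 rose by 1.11 ± 0.29 on the log2 scale (edgeR, adjusted p = 0.0409). Mtl rose by 1.61 ± 0.38 and Cdc42, which acts on actin and cell polarity, by 1.05 ± 0.25 (edgeR, adjusted p = 0.0293 and 0.0301). Cdc42 had the highest CPM of this list, with no account of length, at 503 ± 44.7 CPM in knockdown guts, against 242 ± 47.5 CPM in wild-type guts (SD, n = 3 each). Ask1, a MAP3K gene, was the 1 that fell, at a log2 fold change of -0.89 ± 0.24 (edgeR, adjusted p = 0.0432). The scaffold gene Cka, with the highest CPM of those not called as a mean over the 6 libraries and a change that turned from -0.18 to 0.23 with library sizes alone, had 88.6 ± 18.6 CPM in knockdown guts, against 101 ± 7.01 CPM in wild-type guts (SD, n = 3 each). Most of these calls lay close to the threshold. With a single library left out, grnd kept its call in 4 of 6 fits and Traf4, Mtl, Cdc42 and Ask1 in 1 of 6 each, and without knockdown replicate 1 0 of the list were called in edgeR (8 at an unadjusted p under 0.05). In that fit 460 genes in all were called, against 1397 with every library.

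Genes linked to JNK output in other settings were followed as a second list of 17, of which 12 could be tested and 4 rose, against 9.05% of all genes tested. By edgeR 0 fell, against 7.63% of all genes, and 0 were lower at an unadjusted p under 0.05 or by DESeq2. The median log2 fold change was 0.49. The cytokine upd3 stood at 31.6, 29.2 and 47.7 CPM in knockdown guts, against 0.762, 1.27 and 0.472 CPM in wild-type guts. In the wild type these levels of upd3 rest on only 6, 10 and 15 reads. The wild-type libraries alone would not have passed upd3 through the filter on low counts. The matrix metalloprotease gene Mmp2 stood at 29.3, 47.0 and 52.6 CPM in knockdown guts, against 2.92, 5.47 and 2.83 CPM in wild-type guts, a log2 fold change of 3.55 ± 0.37 (edgeR, adjusted p = 0.00255). Mmp1, the other metalloprotease and a target of AP-1 in fly tumours, stood at 256, 233 and 353 CPM in knockdown guts, against 118, 112 and 125 CPM in wild-type guts. Its log2 fold change was 1.25 ± 0.23 (edgeR, adjusted p = 0.0139), close to that of puc. chic, which encodes the actin-binding protein profilin, rose by 1.28 ± 0.28 (adjusted p = 0.023). For each of these 4 genes every knockdown library was above every wild-type library, against 20.2% of all genes tested. The 4 were named because they were called. upd3 and Mmp2 kept their calls with each library left out, Mmp1 in 3 of 6 such fits and chic in 1 of 6.

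The oxidative stress gene GstD1 had the highest CPM of those not called, at 1951, 2505 and 967 CPM in knockdown guts, against 1552, 1188 and 680 CPM in wild-type guts (log2 fold change 0.67 ± 0.47, edgeR, adjusted p = 0.382). Its groups overlap, and replicate 3 was the lowest of each. The death gene hid, the filamin gene cher, dpp, Thor, Atf3, Hsp68 and Timp were not called either. upd1, upd2, Ilp8, rpr and scaf did not have enough reads in at least 3 libraries to be tested. Of these, upd2 held 22, 4 and 132 reads in knockdown guts, against 0, 2 and 5 in wild-type guts, and was named after its values were seen.

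**Figure D5:**
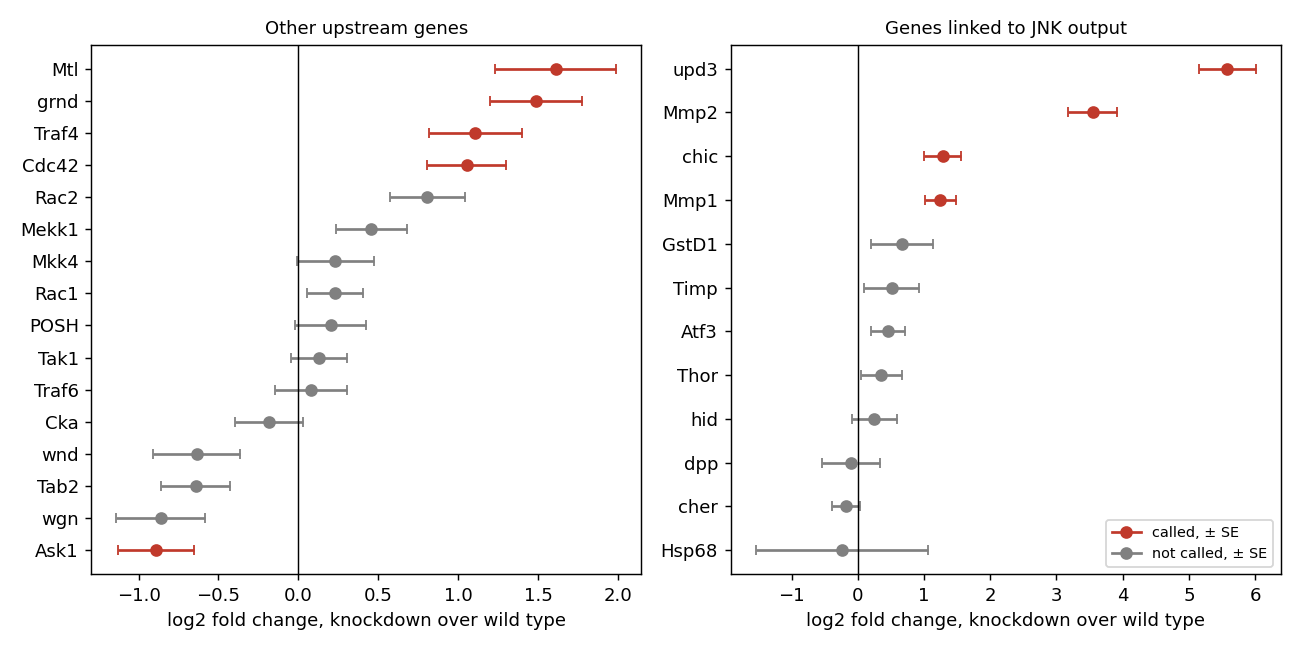
Log2 fold change of knockdown over wild type with bars of ± SE for the 16 tested upstream genes (left) and the 12 tested genes linked to JNK output (right), called genes in red. Upstream changes lie between -0.89 (Ask1) and 1.61 (Mtl), and on the right upd3 at 5.58 and Mmp2 at 3.55 lie above the rest.

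Families to which the members belong gave a further frame. Their counts by adjusted p in edgeR are to be read against 9.05% higher and 7.63% lower of all genes tested. Of 7 tested genes listed with the ETS family other than Ets21C, 1 rose, edl, at 2.25 ± 0.25 on the log2 scale (edgeR, adjusted p = 0.00293). The name of edl stands for ETS-domain lacking, so it is not itself an ETS factor. The other 6 were not called by edgeR, and aop, with the highest CPM among them, had a change of -0.60 ± 0.30 (adjusted p = 0.219). Without knockdown replicate 3 aop was called lower at -0.998 (adjusted p = 0.0367), and without both replicate 3 libraries at -1.07 (0.016). Of 5 tested dual-specificity phosphatase genes other than puc, Mkp3, a phosphatase of ERK, rose by 0.78 ± 0.18 and MKP-4 fell by 0.94 (adjusted p = 0.0293 and 0.0351). ssh, the cofilin phosphatase gene, had a change of -0.26 (adjusted p = 0.443), or 0.20 with library sizes alone. In the ERK and p38 branches, 3 of 8 tested genes rose, the p38 kinase genes p38c by 1.80 ± 0.23 and p38a by 1.16 ± 0.22 and the GTPase gene Ras85D by 0.90 ± 0.19 (edgeR, adjusted p = 0.0038, 0.0148 and 0.0193). By edgeR 0 of these 8 fell (2 were lower at an unadjusted p under 0.05, and 0 by DESeq2). p38b had a change of -0.32 (adjusted p = 0.454), or 0.13 with library sizes alone. Of 9 stress-related bZIP and FOXO factor genes, foxo fell by 1.42 and CrebA by 0.89 (edgeR, adjusted p = 0.0175 and 0.0375). Xrp1 had a change of -0.68 (adjusted p = 0.158), and DESeq2 called it lower at -0.71 (adjusted p = 0.00804). By DESeq2 4 of the 9 were lower, against 12.5% of all genes. Of the 9, 0 rose by edgeR (2 were higher at an unadjusted p under 0.05, and 1 by DESeq2, against 12.2% of all genes by DESeq2). With the replicate block 2 of the 9 rose, against 15.2% of all genes tested. These were Irbp18, by 1.43, and Atf-2, by 0.63 (edgeR, adjusted p = 0.00912 and 0.0468), which were named after their values were seen. With a single library left out, edl and p38c kept their calls in 6 of 6 fits, p38a in 4, Ras85D and foxo in 3, MKP-4 in 2, CrebA in 1 and Mkp3 in 0. The calls of MKP-4, foxo, CrebA and Ask1, all lower in the knockdown, were lost with library sizes alone.

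The genes whose pattern was most like that of puc and of Ets21C were sought among 5880 others with a mean of at least 10 CPM, by the root mean square difference of log2 CPM centred on each gene's mean over the 6 libraries. The 5 nearest to puc were CG5196 at 0.07, the proteasome subunit gene Rpn12 at 0.07, 14-3-3epsilon at 0.08, CG5953 at 0.09 and the ubiquitin hydrolase gene Uch-L3 at 0.09. Rpn12 had 128, 146 and 113 CPM in knockdown guts, against 52.5, 58.9 and 58.0 CPM in wild-type guts. The 5 nearest to Ets21C lay further off, with Akap200, a kinase-anchoring protein gene, at 0.23, Swim at 0.28, CG13488 at 0.30, Cyp305a1 at 0.31 and Mmp2 at 0.34. Akap200 had 733, 771 and 729 CPM in knockdown guts, against 48.5, 148 and 58.2 CPM in wild-type guts. As for Ets21C, replicate 2 was the highest of the wild type. This likeness follows the size of the group difference and the order of the replicates, and shows nothing of shared control.

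Markers of other cell types moved between the same libraries. Their counts by adjusted p in edgeR, not the unadjusted ones, are to be read against 9.05% higher and 7.63% lower of all genes tested. With the replicate block these shares were 15.2% and 14%, and by DESeq2 12.2% and 12.5%. Of 10 enteroendocrine genes, 10 rose, and their summed level was 858 to 1036 CPM in knockdown guts, against 286 to 326 CPM in wild-type guts. Of 8 stem cell and progenitor genes, 4 rose, with a summed level of 172 to 188 CPM in knockdown guts, against 65.8 to 107 CPM in wild-type guts, and 5 rose with the replicate block. Of the 4 called without the block, sna held 23, 9 and 85 reads in knockdown guts, against 0, 1 and 2 in wild-type guts. Its wild-type libraries alone would not have passed it through the filter on low counts, and sna was named after its values were seen. No gene of the enteroendocrine and progenitor lists was at 0 in all libraries. Of 8 enterocyte genes, 0 were called in edgeR (1 was higher and 2 were lower at an unadjusted p under 0.05, and 1 was higher and 3 were lower by DESeq2), with a summed level of 12116 to 49596 CPM in knockdown guts, against 45987 to 100760 CPM in wild-type guts. With the replicate block 4 of these 8 were called: Mex1 was higher at 1.05 (edgeR, adjusted p = 0.0168), and the protease genes betaTry, alphaTry and Jon99Ciii were lower at -1.91, -1.71 and -2.53 (adjusted p = 0.02, 0.0268 and 0.00566). Of 8 muscle genes, 0 were called in edgeR (0 at an unadjusted p under 0.05 and 0 by DESeq2). Their summed level varied widely in the wild type, at 606 to 785 CPM in knockdown guts, against 583 to 1456 CPM in wild-type guts. Of the 8 haemocyte genes, 3 could be tested and 0 were called (0 at an unadjusted p under 0.05 and 0 by DESeq2), and He and eater held almost no reads. Of 4 tested fat body genes and 6 tracheal genes, 0 were called in edgeR (0 at an unadjusted p under 0.05 and 0 by DESeq2), and of 4 tested Malpighian tubule genes 2 fell. The summed level of the fat body genes varied widely, at 177 to 825 CPM in knockdown guts, against 7.24 to 242 CPM in wild-type guts. The fitted change was above 0 for all 4 tested fat body genes, against 51.9% of all genes tested. With the replicate block 1 of the fat body genes was higher, apolpp (edgeR, adjusted p = 0.0435), and 3 of the Malpighian tubule genes were lower, with NaPi-T added (adjusted p = 0.0366). The genes given for a blocked call were named after their values were seen. The part of these cell types in the changes of Ets21C, puc, kay, Jra and the other genes was not tested.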

How the data were processed

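Total RNA from whole midguts was sequenced in 3 Rab11 KD and 3 WT libraries, grouped and numbered by their titles. The authors deposited a table of raw counts per gene, made with STAR 2.4.2a and HTSeq 0.6.1 on build BDGP5, per the submitters' processing notes, which also name DESeq2. No source used here gives the annotation, the counting mode or the strand setting. The authors also deposited a comparison table that holds, per the file headers, the log2 fold change, p-value and adjusted p-value of DESeq2, with the mean normalized count, SE and Wald statistic as scores of no fixed range. It was used for 3 of the genes.

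Members were taken by row name. The 10 genes and all lists were chosen with earlier results of these data known. Of 140 genes on the lists, 137 were matched to a row by symbol, older name or RefSeq synonym. The annotation at hand is BDGP6, another build, so it served for names, exon overlaps and exon lengths, and no coordinates are given. Genes were kept by filterByExpr (minimum count 10), library sizes were scaled by TMM, and groups were compared with edgeR 4.0.16 in R 4.3.3 by the quasi-likelihood F-test, two-sided, group as the sole term. The SE was taken from the fold change and its F statistic. The procedure was checked on simulated data with known changes. CPM for values are counts over the scaled library size, and log2 CPM uses a prior count of 2.

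Both groups carry the replicate numbers 1, 2 and 3. Deviations from group means correlated at 0.14, 0.21 and 0.71 for same-numbered libraries across genes, all above the limit of 0.1. The main fit has no term for the replicate number. Same-numbered libraries were taken as pairs only in the blocked fit, whose values are printed beside results whose calls they change. This pairing comes from the data and is clear for replicate 3 alone, since knockdown replicate 2 correlated with wild-type replicate 1 at 0.51 and knockdown replicate 1 with wild-type replicate 2 at 0.34, above the values of their own numbers. Named genes were the 10, Rab11, up to 4 called genes of each list in order of p and its most abundant gene not called, and the 5 genes nearest in pattern to puc and to Ets21C. Alternatives were DESeq2 1.42.0, no filter, other scalings, the block, and fits without single libraries or both replicate 3 libraries.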

Additional observations from a re-analysis of the deposited data

How the results depend on the processing

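Of 120 alternative fits of the 10 genes (12 for each), 106 kept the direction and the side of the threshold. Calls were lost in 7, of Jra and kay with single libraries left out, and gained in 3, of msn. Scaling by library sizes alone moved the all-gene median to 0.47, and 82.8% of 1394 calls were higher, against 54.3% of 1397 with TMM, and with upper-quartile factors the median was 0.11. The median of the 10 genes was then 1.10 with library sizes alone, which is 0.63 above that of all genes, against 0.60 above it with TMM. With library sizes alone slpr (0.21), ssh (0.20), p38b (0.13) and Cka (0.23) changed sign, none of them called. Gadd45 changed sign without both replicate 3 libraries (-0.085), and with a single library left out its change ran from -0.19 (without wild-type replicate 3) to 0.49 (without wild-type replicate 2), with -0.03 without knockdown replicate 2. The cause of these shifts was not tested.

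The replicate block called 5 of the 10 genes, adding msn, and 2451 genes in all. It left 7 of the upstream list called, and changed no other call of the 10. With a single library left out, 2 to 4 of the 10 genes were called, 0 to 4 of the upstream list and 2 to 4 of the output list, the median of the 10 genes ran from 0.39 (without knockdown replicate 3) to 0.74, and the change of Rab11 from -2.04 to -1.73. Such fits hold fewer libraries and called 460 to 1138 genes in all. The lowest count of the 10 genes, 2, came without knockdown replicate 1 and without wild-type replicate 1. The upstream list had 5 calls, 8 with DESeq2 (5 higher and 3 lower), 3 with no filter on low counts (all higher) and 4 with library sizes alone (all higher). Depth limits Ets21C in the wild type, at 15 to 110 reads.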
